A study of Mus musculus with 2 samples.

Results

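Steroid hormone receptors depend on a chaperone machine before hormone binds and on coregulators afterwards, and the RNA of 9 genes of this kind was examined in the pregnant mouse uterus. The genes were taken by symbol from the table of expression levels: the chaperone Hsp90aa1, the co-chaperones Ptges3, Fkbp4 and Fkbp5, the coactivators Ncoa1, Ncoa2 and Ncoa3, and the corepressors Ncor1 and Nrip1. All 9 were found among the 22740 genes listed. The samples were whole uteri of 2 C57BL/6 mice on day 4 of pregnancy, titled as WT, with 1 poly-A RNA sequencing library per mouse, and are called uterus 1 and uterus 2 after their titles. They form 1 group with no treatment or genotype to compare, so the data give each gene's level and how far 2 animals lay apart. Levels are the authors' RPKM, a read number divided by the length of the transcript and by library depth, and can be compared between genes because they are per length.

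As background, the progesterone, oestrogen and glucocorticoid receptors are held in a hormone-binding form by HSP90 together with the co-chaperone p23 (the product of Ptges3) and an immunophilin such as FKBP52 (Fkbp4) or FKBP51 (Fkbp5). FKBP52 raises the hormone response of several of these receptors, FKBP51 opposes it, and the Fkbp5 gene is itself a target of progesterone and glucocorticoids. Mice without Fkbp4 are known for a uterus that resists progesterone and does not accept embryos. The p160 coactivators Ncoa1, Ncoa2 and Ncoa3 bind the receptor once hormone is in place and recruit the acetyltransferases CBP and p300. NCOR1 brings the histone deacetylase HDAC3 to receptors, and NRIP1 (RIP140) competes with the coactivators for the hormone-bound receptor.

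The libraries were checked against markers of the tissue. All 12 uterine markers, among them Pgr, Hoxa10, Krt8 and Acta2, lay at 10 RPKM or more in both uteri, with a summed level of 1776 RPKM in each. The 6 ovary and oviduct markers summed to 19.5 and 23.9 RPKM. Foxl2, Ovgp1, Star and Inha were detected, with means of 8.21, 7.54, 3.40 and 2.26 RPKM, Cyp11a1 had 0.287 RPKM and Cyp19a1 was listed at 0. Leukocyte markers summed to 62.0 and 69.3 RPKM, and endothelial markers to 134.8 and 131.0 RPKM. Reads were recovered from the RPKM values up to a whole multiple, which was chosen by transcript length. They summed to 3860225 in uterus 1 and 4287822 in uterus 2. These sums lie above the totals implied by the RPKM scaling, 3834174 and 4256101, and the reason for this was not tested. In whole tissue, fewer cells of a type and less RNA per cell cannot be told apart.

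Every one of the 9 genes was expressed. Their means ran from 13.998 to 242 RPKM, against a median of 3.26 ± 0.0405 RPKM (SD, n = 2) over all genes listed, and rested on 265 to 3405 reads per library. The chaperone Hsp90aa1 was highest, at rank 168 of the 22740 genes, and the co-chaperones Ptges3 and Fkbp4 followed at ranks 288 and 374. Ncor1, Fkbp5 and Nrip1 lay at ranks 1902, 4084 and 4112. The 3 p160 genes were the lowest of the 9, at ranks 5244 for Ncoa2, 5457 for Ncoa1 and 5615 for Ncoa3.

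**Figure D1:**
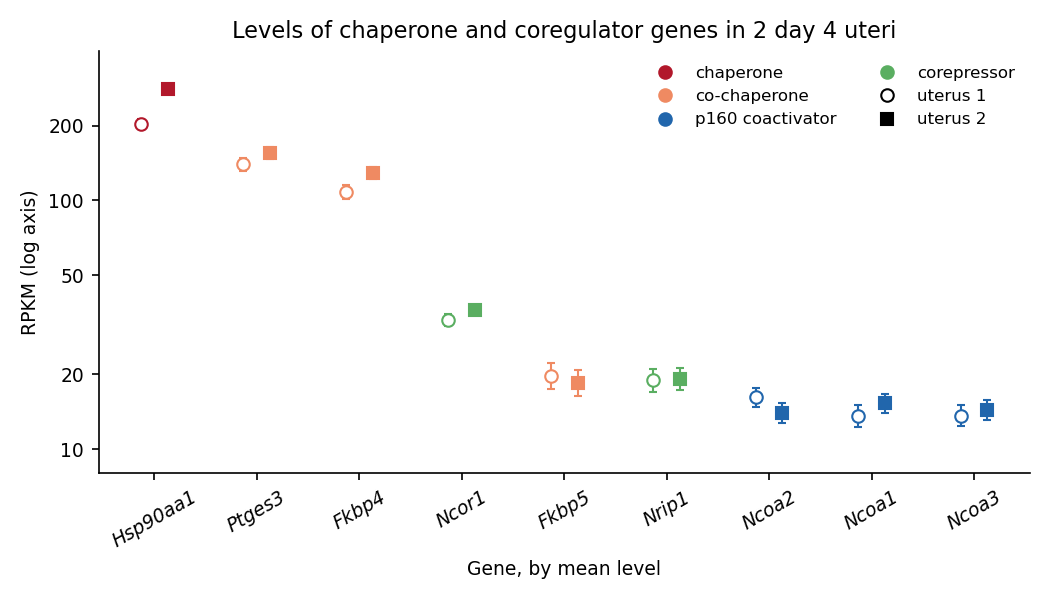
RPKM (log axis) of the 9 genes in uterus 1 (open circles) and uterus 2 (filled squares), ordered by mean level and coloured by role, with bars for the 95% exact Poisson interval of the reads. Hsp90aa1, Ptges3 and Fkbp4 lie above 100 RPKM in both uteri, and the other 6 genes lie below 40 RPKM.

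In the order of the 9 levels, 5 of the 8 neighbouring pairs had library values that did not overlap. Hsp90aa1 lay 1.64-fold above Ptges3, Ptges3 1.24-fold above Fkbp4, Fkbp4 3.43-fold above Ncor1, and Ncor1 1.81-fold above Fkbp5. The largest step was thus between the 3 abundant chaperone genes and the rest. Fkbp5 and Nrip1 could not be ordered, since the 2 libraries of Nrip1 lay inside the range of Fkbp5. Nrip1 lay 1.26-fold above Ncoa2, and the 3 p160 genes overlapped one another. With 2 libraries this order is a description and no test was made of it.

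Hsp90aa1 encodes the stress-inducible form of cytosolic HSP90. It lies on the minus strand of chromosome 12, 111929246 to 111934605 (mm9), with 11 exons, 10 of them coding. It was at 203 RPKM in uterus 1 (95% exact Poisson interval 195 to 212) and at 281 RPKM in uterus 2 (271 to 290), on 2220 and 3405 reads. Uterus 2 was the higher one and the intervals were far apart. The log2 ratio of uterus 2 over uterus 1 was 0.47 (95% Clopper-Pearson interval 0.39 to 0.54), with a Benjamini-Hochberg adjusted p of 4.94e-30 in a two-sided exact binomial test on the reads. That test compares these 2 libraries, not conditions, and takes in counting error only. With the smallest reads that give the same ratio, 148 and 227, the adjusted p was 0.0597 and Hsp90aa1 was not called.

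Most of the Hsp90aa1 transcript has close copies elsewhere in the genome. Of its 3281 annotated bases, 84.5% matched 5 other places at 95% identity or more over at least 50 bases. How the authors assigned reads that fit several places is not given in the sources used here, so its level is uncertain to that extent. The constitutive form Hsp90ab1 was higher, with 604 RPKM in the first animal and 679 RPKM in the second, a log2 ratio of 0.17 (adjusted p 5.97e-09, exact binomial test), and 10.5% of its transcript had such copies. The Hsp90ab1 level was 2.98 times that of Hsp90aa1 in uterus 1 and 2.42 times in uterus 2, so the stress-inducible gene made up a larger part of the pair in uterus 2.

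Both HSP90 proteins and the HSP70 protein HSPA8 end in a short acidic tail to which the tetratricopeptide domains of FKBP52, FKBP51, PPID and STIP1 bind. The last 5 codons before the stop codon are shown, 5′ to 3′ from the GENCODE M1 transcripts, because they are the site on which FKBP52 and FKBP51 dock; p23 binds HSP90 elsewhere. The capitals mark the final 4 codons, which encode glutamate, glutamate, valine and aspartate in each.
Hsp90aa1 (codons 729 to 733): atgGAAGAAGTAGAC
Hsp90ab1 (codons 720 to 724): atgGAAGAGGTGGAT
Hspa8 (codons 642 to 646): attGAAGAGGTGGAT
Of 21637 coding genes, 8 ended in these 4 residues: the 3 shown, Hspa1a, Hspa1b, Hspa1l, Hspa2 and Bcl2l14.

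Ptges3 encodes p23, the co-chaperone that stabilises the closed, ATP-bound form of HSP90. It lies on the plus strand of chromosome 10, 127496038 to 127514310 (mm9), in 8 exons, and its exons overlap those of Baz2a on the same strand. Uterus 1 had 139.9 RPKM and uterus 2 155 RPKM, from 1048 and 1292 reads. The libraries lay close together, and the log2 ratio of 0.15 (95% Clopper-Pearson interval 0.03 to 0.27) did not pass the exact binomial test (adjusted p 0.148). Of its 2000 annotated bases, 81.8% had close copies at 2 other places, so the same doubt about shared reads applies to it as to Hsp90aa1. Summed over both genes, HSP90 RNA stood at 5.77 times the Ptges3 level in uterus 1 and 6.18 times in uterus 2.

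Fkbp4 encodes FKBP52, the immunophilin that favours progesterone receptor activity. It lies on the minus strand of chromosome 6, 128380125 to 128388649 (mm9), in 10 coding exons, and no part of its transcript had a close copy. Its level was 108 RPKM in uterus 1 (95% exact Poisson interval 101 to 116) and 129 RPKM in uterus 2 (122 to 137), on 901 and 1193 reads. The intervals did not overlap, and the log2 ratio was 0.25 (95% Clopper-Pearson interval 0.13 to 0.38, adjusted p 0.00314, exact binomial test). Fkbp4 was the highest of the 15 genes of the FKBP family examined and held 17.8% of the family's summed RPKM in uterus 1 and 22.0% in uterus 2. The combined HSP90 level was 7.45 times that of Fkbp4 in uterus 1 and 7.42 times in uterus 2, so Fkbp4 and the HSP90 pair stood in nearly the same proportion in both animals.

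Fkbp5 encodes FKBP51, the close relative of FKBP52 that lowers the hormone response. It lies on the minus strand of chromosome 17, 28536040 to 28623057 (mm9), with 11 exons, 10 of them coding, and no close copies. Its level was 19.7 RPKM in uterus 1 (95% exact Poisson interval 17.4 to 22.2) and 18.5 RPKM in uterus 2 (16.4 to 20.8), on 265 and 276 reads. These intervals overlapped, and the log2 ratio of -0.09 (95% Clopper-Pearson interval -0.34 to 0.16) did not pass the exact binomial test (adjusted p 0.882). Fkbp5 held 3.19% ± 0.0622 (SD, n = 2) of the family's summed RPKM and ranked 11 of 15.

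The 2 immunophilins of opposite effect were therefore expressed at unequal levels in both animals. Fkbp4 RNA exceeded Fkbp5 RNA 5.50-fold in uterus 1 and 6.99-fold in uterus 2, a mean of 6.25 ± 1.06 (SD, n = 2). Set against the progesterone receptor gene Pgr, at 77.5 and 66.4 RPKM, Fkbp4 lay 1.40-fold above it in uterus 1 and 1.95-fold in uterus 2. Pgr in turn lay 3.93-fold and 3.59-fold above Fkbp5. Ppid, which encodes the cyclophilin that can take the same place on HSP90, lay at 51.9 and 71.0 RPKM, so Fkbp4 exceeded it 2.09-fold and 1.82-fold. Other tissue or hormone states were not measured, so these proportions have no control to be set against.

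Promoter sequence was looked at because several genes of the HSP90 cycle differed between the animals in the same direction. RefSeq start sites (GRCm38.p6) were matched for 6 of the 9 genes: Fkbp4, Fkbp5, Ptges3, Ncoa1, Ncor1 and Nrip1. Hsp90aa1, Ncoa2 and Ncoa3 had no window. Of the HSP90 cycle genes only Fkbp4, Fkbp5 and Ptges3 were searched, so the cause of the difference between the animals was not tested. The 250 bases before each start were searched on both strands for inverted pairs of the heat shock element, GAANNTTC and TTCNNGAA, each of which reads the same on both strands and may overlap the other. The Fkbp4 window held 1 match, GAANNTTC at position -151 from the start, and it is shown beside the Fkbp5 window, which held none, since the 2 genes are paralogues of opposite effect. Capitals mark the match.
Fkbp4 (minus strand, chr6:128438657-128438906): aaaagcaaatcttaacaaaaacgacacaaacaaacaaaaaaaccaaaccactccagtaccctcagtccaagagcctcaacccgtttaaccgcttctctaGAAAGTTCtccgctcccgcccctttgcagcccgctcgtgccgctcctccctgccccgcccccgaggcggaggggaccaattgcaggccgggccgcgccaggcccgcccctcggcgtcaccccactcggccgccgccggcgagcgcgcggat
Fkbp5 (minus strand, chr17:28486150-28486399): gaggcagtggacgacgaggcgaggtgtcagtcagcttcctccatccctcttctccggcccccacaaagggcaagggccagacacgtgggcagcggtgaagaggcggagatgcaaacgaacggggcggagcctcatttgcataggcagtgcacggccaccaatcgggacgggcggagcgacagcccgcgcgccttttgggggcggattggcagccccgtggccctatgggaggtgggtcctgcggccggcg
Of 32851 RefSeq windows of this length, 6.69% held GAANNTTC and 7.17% held TTCNNGAA. The windows of Ptges3, Ncoa1, Ncor1 and Nrip1 held neither. TGTTCT on either strand, the core of the glucocorticoid and progesterone receptor element, was in 16.1% of all windows. It occurred 2 times in 1 of the 2 Ncor1 windows and in no window of Fkbp4, Fkbp5, Ptges3, Ncoa1 or Nrip1. A match is a run of letters, not evidence of binding, and its absence from this window says nothing about the factor.

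The p160 coactivators Ncoa1, Ncoa2 and Ncoa3 (SRC-1, SRC-2 and SRC-3) were expressed at close to equal levels. For Ncoa1, uterus 1 had 13.6 RPKM and uterus 2 15.3 RPKM, from 381 and 477 reads. Ncoa2 was at 16.1 and 13.99 RPKM, on 508 and 489 reads, and Ncoa3 at 13.6 and 14.4 RPKM, on 394 and 460 reads. Ncoa2 was the highest of the 3 in uterus 1 and the lowest in uterus 2, so the order among them was not the same in the 2 animals.

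None of the 3 differed between the libraries by the exact binomial test. The log2 ratio of uterus 2 over uterus 1 was 0.17 for Ncoa1 (95% Clopper-Pearson interval -0.02 to 0.37, adjusted p 0.432, exact test). It was -0.20 for Ncoa2 (-0.39 to -0.02 from the reads, adjusted p 0.235) and 0.07 for Ncoa3 (-0.12 to 0.27, adjusted p 0.881). Of their summed RPKM, Ncoa1 held 33.2% ± 2.66 (SD, n = 2), Ncoa2 34.6% ± 3.65 and Ncoa3 32.2% ± 0.993. The sum itself was 43.3 RPKM in the first animal and 43.6 RPKM in the second.

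The 3 genes lie on different chromosomes and span long regions (mm9). Ncoa1 covers 236699 bases of chromosome 12 (4247362 to 4484060, minus strand), Ncoa2 234925 bases of chromosome 1 (13129240 to 13364164, minus strand) and Ncoa3 80606 bases of chromosome 2 (165818137 to 165898742, plus strand). Each has 23 annotated exons, and no close copy of their transcripts was found elsewhere, although for Ncoa2 the transcript searched had 4897 bases against a recovered length of 8213. The exons of Ncoa3 overlap those of Sulf2 on the opposite strand, and the use of strand in counting is not given in the sources used here, so reads of that stretch cannot be told apart.

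Coactivators touch the hormone-bound receptor through the NR box, a leucine, any 2 residues and then 2 leucines, and NRIP1 uses the same motif to compete with them. In the longest coding sequences of GENCODE M1, Ncoa1 held 7 such motifs, Ncoa2 4, Ncoa3 6 and Nrip1 10, whereas Ncor1 held 1. Of the 21637 coding genes, 44.3% held at least 1 motif, 0.952% held 7 or more and 0.333% held 10 or more. Overlapping motifs were counted separately and length was not adjusted for, so long proteins have more chances of a match. For the coactivators the 3 motifs that lie closest together are shown as coding bases, 5′ to 3′, with the codons of the 3 leucines that define the motif in capitals, because this motif is the one that contacts the receptor.
Ncoa1 (codons 637 to 641): CTAgtacagCTATTG
Ncoa1 (codons 694 to 698): CTGcaccggCTTTTA
Ncoa1 (codons 755 to 759): CTAcgctacCTTTTA
Ncoa2 (codons 641 to 645): CTCctgcagCTGCTG
Ncoa2 (codons 690 to 694): TTGcacagaCTCTTA
Ncoa2 (codons 745 to 749): CTGcgctatTTGCTC
Ncoa3 (codons 613 to 617): CTGctgcagTTACTC
Ncoa3 (codons 677 to 681): TTGcacaagTTGCTG
Ncoa3 (codons 729 to 733): CTTagatacCTGCTG
The 3 motifs spanned 123 codons in Ncoa1, 109 in Ncoa2 and 121 in Ncoa3. In Nrip1 the closest 3 spanned 125 codons, and 2 of them overlapped in the run below, shown from the first of the pair.
Nrip1 (codons 501 to 505): CTTcttcagTTGCTG
Nrip1 (codons 502 to 506): CTTcagttgCTGCTC

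The corepressor Ncor1 was at 33.0 RPKM in uterus 1 (95% exact Poisson interval 31.3 to 34.8) and at 36.3 RPKM in uterus 2 (34.6 to 38.1), on 1412 and 1722 reads. The 2 libraries lay close together, and the log2 ratio of 0.14 (95% Clopper-Pearson interval 0.03 to 0.24) did not pass the exact binomial test (adjusted p 0.124). Ncor1 lies on the minus strand of chromosome 11, 62129928 to 62252017 (mm9), with 45 coding exons. Of the 9 genes, only Ncor1 had a recovered length, 11144 bases, that was not matched to an annotated transcript. In this match the transcript ends could differ by up to 5000 bases. The Ncor1 reads could be as few as 706 and 861. No close copy was found in the 7243 annotated bases searched.

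The partners of NCOR1 were expressed, some above and some below Ncor1 itself. Hdac3, the deacetylase that NCOR1 activates, was at 40.1 and 36.0 RPKM, 1.21 and 0.991 times the Ncor1 level. The WD-repeat subunits of the complex, Tbl1x and Tbl1xr1, had means of 50.3 ± 0.0620 and 18.2 ± 0.571 RPKM (SD, n = 2). Gps2, another subunit, had 21.0 ± 1.41 RPKM and was among the 23 of 27 corepressor genes at 10 RPKM or more in both uteri.

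Nrip1 differed least between the animals, with 18.9 RPKM in the first and 19.1 RPKM in the second, from 328 and 369 reads. The log2 ratio was 0.02 (95% Clopper-Pearson interval -0.20 to 0.24, adjusted p 1, exact binomial test). The gene lies on the minus strand of chromosome 16, 76291107 to 76373294 (mm9), and of its 4 exons 1 holds the whole coding sequence of 1161 codons. Ncor1 lay 1.75-fold above Nrip1 in uterus 1 and 1.90-fold in uterus 2. Lcor, a ligand-dependent corepressor that also binds receptors with hormone, was lower than Nrip1 by 2.77-fold and 2.68-fold.

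Among all 9 genes, the spread between the animals was small. Of the 9, 7 were higher in uterus 2, as were 52.3% of genes averaging 10 RPKM or more. None was 1.5-fold apart, whereas 8.35% of the 13647 genes averaging 1 RPKM or more were, and 2.02% of the 7311 averaging 10 RPKM or more. At 2-fold, 2.60% and 0.657% of these genes were apart and none of the 9. At this level a count of 0 among 9 genes is near what the whole table shows. The exact binomial test called 2 of the 9, Hsp90aa1 and Fkbp4, both higher in uterus 2 (1 of the 9, Fkbp4, with the smallest reads), where it called 4.70% of the 15155 genes tested, and 2.17% as higher in uterus 2. Calls depend on depth: the test called 7.99% of genes averaging 10 RPKM or more and 31.1% of those averaging 100 RPKM or more, 18.1% as higher in uterus 2. Hsp90aa1, Fkbp4 and Ptges3 belong to that last class, so a call among them is not rare.

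**Figure D2:**
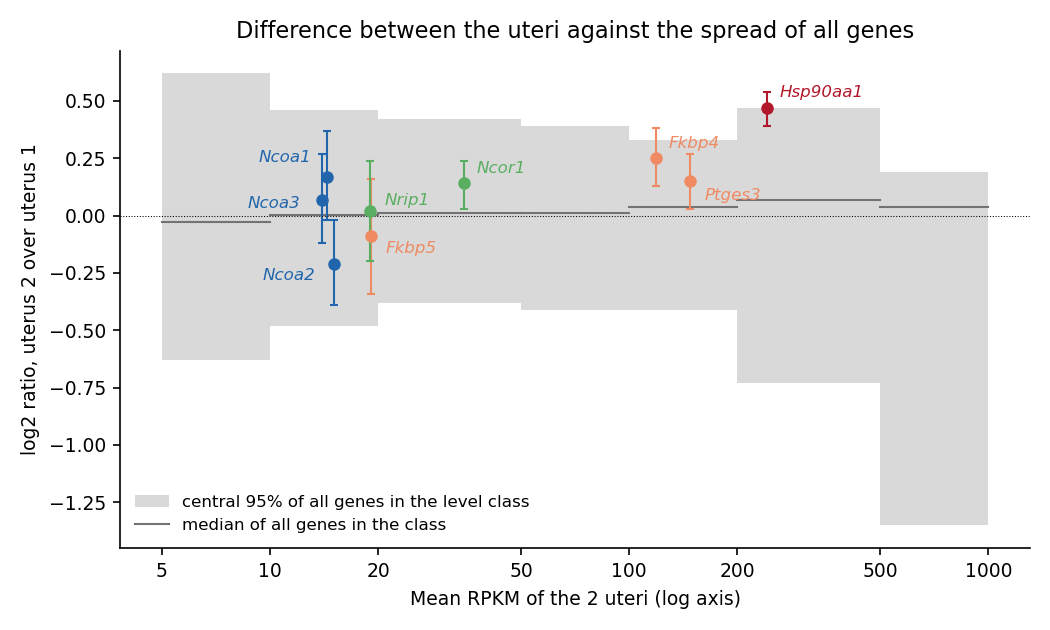
Log2 ratio of uterus 2 over uterus 1 against mean RPKM (log axis) for the 9 genes, with 95% Clopper-Pearson intervals from the reads, over grey bands for the central 95% of all genes in each level class and a line for their median. Hsp90aa1 at 0.47 lies at the upper edge of its class, and the other 8 genes lie inside theirs.

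Hsp90aa1 lay at the edge of the spread for its level. In the class of 96 genes between 200 and 500 RPKM, the central 95% of log2 ratios ran from -0.73 to 0.47 with a median of 0.066. Over all genes averaging 10 RPKM or more, 4.39% differed by more than Hsp90aa1 did and 20.9% by more than Fkbp4 did. For Nrip1 this share was 91.8%. The log2 ratios here are on the scale of log2(RPKM + 0.1).

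The other genes of the HSP90 cycle were then described from a list of 30 that includes Hsp90aa1, Ptges3, Fkbp4 and Fkbp5. All 30 were at 1 RPKM or more in both uteri and 27 at 10 RPKM or more, with a median of 49.96 ± 3.51 RPKM (SD, n = 2). The constitutive HSP70 gene Hspa8 was highest at 1149 and 1511 RPKM, followed by Hsp90ab1, Hsp90aa1 and Ptges3. Lowest were Hspa1a at 3.45 and 7.64 RPKM and the deacetylase gene Hdac6 at 9.07 and 11.9 RPKM.

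These genes tended to be higher in uterus 2. Of the 30, 22 were higher there, against 50.1% of all genes averaging 1 RPKM or more, and their median log2 ratio was 0.234 against 0.001 over all genes. The exact binomial test called 12 of the 30, all 12 of them higher in uterus 2, against the 3.89% called as higher there of genes averaging 10 RPKM or more. Without the 4 genes described above, it called 10 of 26, all higher in uterus 2, with a median log2 ratio of 0.234. The list holds many abundant genes, for which this test calls small differences, and its genes are not independent replicates.

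**Figure D3:**
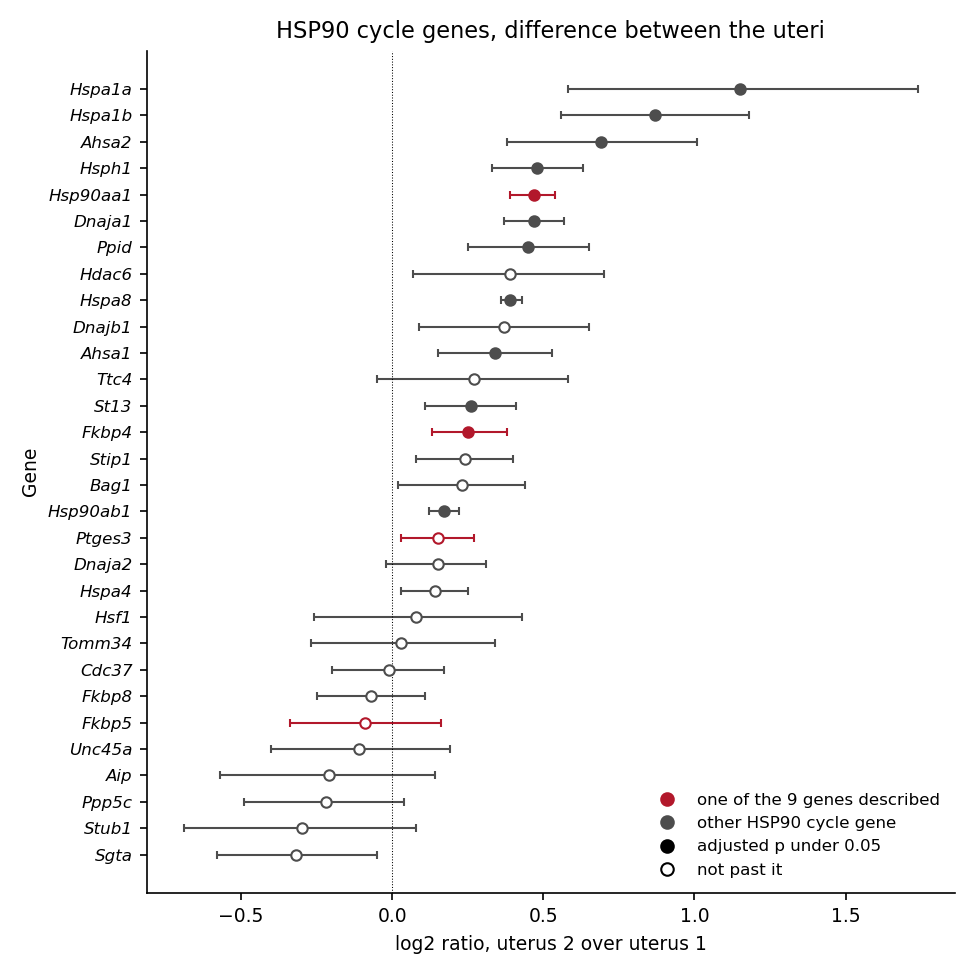
Log2 ratio of uterus 2 over uterus 1 for the 30 HSP90 cycle genes with 95% Clopper-Pearson intervals from the reads, ordered by ratio, filled where the exact binomial test gave an adjusted p under 0.05, red for Hsp90aa1, Ptges3, Fkbp4 and Fkbp5. All 12 filled points lie to the right of 0.

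The largest ratios were those of Hspa1a, Hspa1b and Ahsa2. Hspa1a and Hspa1b, the stress-induced HSP70 genes, had log2 ratios of 1.13 (adjusted p 0.00161, exact binomial test) and 0.86 (adjusted p 1.7e-06), on 37 and 91 reads and on 129 and 261 reads. These 2 genes are near-identical copies, so the division of reads between them is uncertain. Ahsa2, which encodes a relative of the HSP90 ATPase activator, had 0.68 (adjusted p 0.000602). These 3 were the only genes of the 30 at least 1.5-fold apart, where 8.35% of genes averaging 1 RPKM or more and 2.02% of those averaging 10 RPKM or more were. Hspa1a is the gene of the 3 that averaged under 10 RPKM. Hsph1, Dnaja1 and Ppid followed at 0.48, 0.47 and 0.45, and Hspa8 at 0.39, each called by the exact test. Dnajb1, an inducible HSP40 gene, had 0.36 (adjusted p 0.128, exact binomial test). Stip1, which carries receptors from HSP70 to HSP90, had a log2 ratio of 0.24 (adjusted p 0.0661), and Hsf1, the heat shock transcription factor, 0.08. At the other end, Sgta had -0.31 (adjusted p 0.183, exact binomial test).

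Markers of other cells differed too and are given beside this result. Of 12 uterine markers, the exact binomial test called 4: Krt18 (log2 ratio 0.42) and Myh11 (0.16) higher in uterus 2, and Pgr (-0.22) and Acta2 (-0.14) lower. The share this test called was 7.99% of all genes averaging 10 RPKM or more and 31.1% of those averaging 100 RPKM or more. The epithelial markers Epcam and Krt8 had 0.34 and 0.18 and were not called. Of the 5 leukocyte markers averaging 1 RPKM or more, 3 were higher in uterus 2, with a median log2 ratio of 0.205 (Ptprc 0.28, Csf1r 0.24), and none was called by the exact test. Of 4 endothelial markers 3 were higher in uterus 2, with a median of 0.028, and Kdr (-0.46) was called lower. Of the 4 ovary and oviduct markers averaging 1 RPKM or more, 3 were higher in uterus 2, with a median log2 ratio of 0.489, and none was called. Ovgp1, at 5.78 and 9.31 RPKM, had 0.68 (adjusted p 0.0834, exact binomial test), Inha 0.59, Star 0.39 and Foxl2 -0.13. The part of these markers in the chaperone result was not tested. With 1 library per animal, differences in the animals, in dissection and in library preparation cannot be told apart.

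In the FKBP family, 14 genes including Fkbp4 averaged 1 RPKM or more. Of these, 4 were higher in uterus 2 (Fkbp4, Fkbp1b, Fkbp3 and Fkbp15) and 10 in uterus 1. Of all genes averaging 1 RPKM or more, 50.1% were higher in uterus 2. The median log2 ratio of the 14 was -0.109 against 0.001 over all genes. Fkbp9 had a mean of 104 ± 0.493 RPKM (SD, n = 2), next to Fkbp4, and Fkbp8 66.2 ± 2.21 RPKM. The exact binomial test called 3 of the 14. Besides Fkbp4, it called Fkbp1a (-0.36, adjusted p 0.00238) and the endoplasmic reticulum member Fkbp10 (-0.41, adjusted p 0.00178) as lower in uterus 2. Over all genes this test called 7.99% of those averaging 10 RPKM or more and 31.1% of those averaging 100 RPKM or more. Fkbp1b had the lowest mean above 0, 1.76 ± 0.227 RPKM, and Fkbp6 was listed at 0 in both.

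Among 40 coactivator genes, 39 had at least 1 RPKM in both uteri and 35 at least 10 RPKM, with a median of 18.3 ± 0.669 RPKM (SD, n = 2). Ncoa2, Ncoa1 and Ncoa3 ranked 27, 29 and 30 of the 40, below the list's median. The RNA helicase genes Ddx5, at 294 ± 36.0 RPKM, and Ddx17, at 101 ± 2.45 RPKM, were highest, followed by Psmc5 and Ncoa4. Crebbp (CBP) had a mean of 31.1 ± 1.65 RPKM and Ep300 (p300) 18.5 ± 1.09 RPKM, a ratio of 1.67 in uterus 1 and 1.69 in uterus 2. Ppargc1b and Ppargc1a, coactivators known from energy-burning tissues, were lowest at 1.62 and 0.321 RPKM. The exact binomial test called 3 of the 39 genes averaging 1 RPKM or more: Ddx5 higher in uterus 2 (0.25), and Arid1a (-0.25) and the methyltransferase gene Kmt2d, listed as Mll2 (-0.38), lower. This count is near the 7.99% called of all genes averaging 10 RPKM or more.

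Among 27 corepressor genes, 25 had at least 1 RPKM in both, with a median of 24.4 ± 0.617 RPKM (SD, n = 2). Ncor1 ranked 10 and Nrip1 19 of the 27. Phb2 and Chd4 were highest at 86.5 ± 5.44 and 85.8 ± 0.835 RPKM, followed by Ctbp1 and Hdac2. The orphan receptors Nr0b2 and Nr0b1, which repress other receptors, were lowest at 0.432 and 0.335 RPKM. Of the 25 genes, 13 were higher in uterus 2 and 12 in uterus 1, with a median log2 ratio of 0.019.

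**Figure D4:**
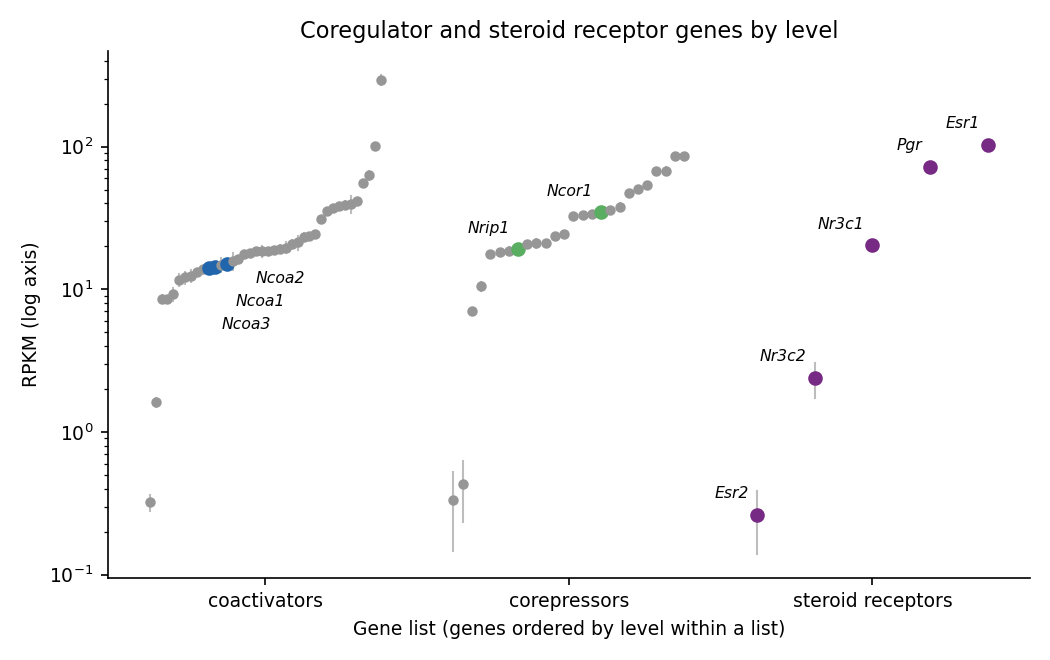
Mean RPKM (log axis) of coactivator, corepressor and steroid receptor genes, each point a gene ordered by level, with a grey line joining the values of the 2 uteri. The 3 p160 genes lie near 14 to 15 RPKM, Nrip1 and Ncor1 at 19.0 and 34.7 RPKM, and Esr1 and Pgr above all of them.

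The receptors that these proteins serve differed widely in level. Esr1 had a mean of 103 ± 5.46 RPKM (SD, n = 2), Pgr 72.0 ± 7.90 RPKM and Nr3c1, the glucocorticoid receptor, 20.3 ± 0.244 RPKM, whereas Nr3c2 and Esr2 lay at 2.39 and 0.264 RPKM. The 3 p160 genes together stood below either main receptor: Pgr lay 1.79-fold and 1.52-fold above their sum, and Esr1 2.47-fold and 2.27-fold. Of the 12 genes known to respond to glucocorticoids or progesterone, Fkbp5 ranked 9, Tsc22d3 (GILZ) had a mean of 54.8 ± 2.98 RPKM and Zbtb16 24.9 ± 3.06 RPKM. In this list 6 genes were higher in each uterus. The exact binomial test called 2 of the 12. Mt1 was higher in uterus 2 (0.36, adjusted p 0.00349) and Hsd11b2, which inactivates corticosterone, was lower (-0.57, adjusted p 2.93e-11). Among all genes, 7.99% of those averaging 10 RPKM or more and 31.1% of those averaging 100 RPKM or more were called. The other metallothionein gene, Mt2, had 0.08, Per1 -0.12 and Dusp1 -0.18, none of them called by the exact test.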

How the data were processed

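RNA of whole uterus from 2 mice of 1 group was measured. The authors deposited RPKM values in 2 tables that agree for all 22740 genes, and the main one was used. TopHat, edgeR and mm9 are named in the submitters' processing notes, without versions or roles; counting, annotation and strand are not given in the sources used here. Every value column was matched to a library.

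RPKM is not a count, so reads were recovered. In rows shorter than 400 bases the values are whole multiples of 1 read for 98.6% (uterus 1) and 99.0% (uterus 2) of rows, which gave scaling totals of 3834174 and 4256101. For each gene the shortest length giving whole reads in both libraries (within 1e-05) was found, and its multiple nearest to a GENCODE M1 transcript (ends within 5000 bases) was taken. All 17426 genes above 0 gave whole reads, and 13174 of 16218 annotated ones were counted as matching a transcript in length. Such a match need not be the full annotated length: Hsp90aa1 had 2850 bases against 3281. Because the multiple was chosen by its nearness to a transcript, this count is no independent check of the reads. Intervals reflect counting error alone, as PCR duplicates are not separate molecules. Libraries were compared by two-sided exact binomial tests (at least 6 reads), Benjamini-Hochberg adjusted over 15155 genes. No group comparison exists.

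Named genes were all 9 plus, from fixed lists, the highest 4, the lowest 2, those 1.5-fold apart and close partners; genes the exact test called were added after their values were seen. Members and lists were chosen with earlier results of these data known. A few genes of the lists are counted in them but not reported here by name. Kmt2c and Kmt2d were found as Mll3 and Mll2. Close copies came from BLAST+ 2.17.0 on NCBIM37. The search for the shortest length and the exact test were tested on simulated data, and the choice of its multiple was not. SciPy 1.17.1 was used.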

Additional observations from a re-analysis of the deposited data

How the results depend on the processing

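With the smallest reads that give each ratio, the exact binomial test called 1 of the 9 genes instead of 2. Hsp90aa1 had 148 and 227 such reads and an adjusted p of 0.0597 in that test, by construction of fewer reads. Its recovered length of 2850 bases was counted as a match to annotation, but the annotated transcript searched for copies had 3281 bases. The TPM scale changes the unit and moved levels by construction, to 46.0 for the median of the 9 genes, 118 for the HSP90 cycle, 56.0 for the FKBP family, 43.4 for coactivators, 57.7 for corepressors, 59.4 for steroid receptors and 88.9 for glucocorticoid and progesterone response genes. Without Fkbp6, listed at 0, the FKBP median was 30.2 RPKM. No log2 ratio of the 9 changed sign with pseudocounts of 0.01 or 1, on the TPM scale or after centring. The count of 0 of the 9 genes at least 1.5-fold apart also stayed. The share of all genes it is set against was 8.35% in the main run. It was 4.84% with a pseudocount of 1, 2.02% at a mean of 10 RPKM or more and 15.1% with no filter. The HSP90 cycle count, examined after seeing the data, stayed between 10 and 12 in the 4 alternatives run. Leaving out a library gives the other's value, which lies within 1 SD by construction. A ratio between libraries then has no value. No paired analysis was possible because both libraries belong to a single group.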
